A study of Homo sapiens with 12 samples.

Results

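The extracellular matrix is the network of secreted proteins around cells. The genes described here encode its collagens, laminins and glycoproteins, the lysyl oxidases that cross-link them, the proteases that cut them and the inhibitors of those proteases. Members were chosen by gene symbol (collagen and laminin chains, MMP, ADAMTS, TIMP, LOX and THBS families, FN1, TNC, SPARC, PLAU, PLAUR and serpin inhibitors) and by a mean of at least 0.5 CPM over 12 libraries (CPM being the read count scaled to a common library size, for this rule by the plain library total). This gave 63 of 60623 genes in the deposited matrix. In all, 117 symbols matched before the level filter, of which 18 had 0 reads. Just inside the limit were MMP14 at 0.574 CPM and LOX at 0.588 CPM, and just outside it were COL10A1 at 0.429 CPM and COL17A1 at 0.370 CPM. The limit used the mean over all groups and no comparison between them.

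RNA was sequenced from NUGC-4, an established human diffuse gastric cancer cell line, labelled wild type and grown in serum-containing medium. The description label of all 12 samples names adipogenic differentiation, which conflicts with the cell line and drug labels and was not used. After 24 h there were 4 groups of 3 libraries: untreated control, 1 µM IN10018 (an inhibitor of focal adhesion kinase, FAK), 1 µM crizotinib (an inhibitor of the MET, ALK and ROS1 kinases), and both drugs at 1 µM each, called the combination below. The series title asks about joint inhibition of FAK and ROS1 in CDH1-deficient cancers through FAK, YAP and thioredoxin signalling. All groups are 1 line at 1 dose and 1 time, and nothing in the labels tells whether a group's 3 libraries are independent cultures. The p-values thus speak only for the spread among these libraries, possibly a technical one.

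As background, collagen chains fold into triple helices. Fibrillar collagens build cables, while collagen IV and laminins form the sheet of the basement membrane on which epithelial cells rest. A laminin is a trimer of an alpha, a beta and a gamma chain. Integrins bind laminin, collagen and fibronectin outside the cell and activate FAK inside it, and matrix genes such as THBS1 are known transcriptional targets of YAP and TEAD factors and of TGF-beta.

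The libraries held 13691844 to 20489708 reads assigned to genes. The crizotinib group held 1 outlying library, library 2. On the leading axis of a principal component analysis of all tested genes, the crizotinib libraries lay at -4.6, 57.8 and 10.3 and the combination libraries at 56.3, 91.4 and 37.8, so library 2 was placed among the combination libraries. Mitochondrial reads made up 13.3%, 5.21% and 9.46% of the crizotinib libraries and 4.28% to 6.99% of the combination libraries, against 11.0% to 12.7% in control and IN10018. Results against crizotinib are therefore given with and without library 2. By mean level over all libraries, the epithelial markers KRT8 (1510 CPM) and KRT18 (726 CPM) were high, EPCAM was at 17.6 CPM, CDH1, the E-cadherin gene, was at 3.75 CPM, and KRT19 had 0 reads. Of 8 gastric markers, 6 were below 0.5 CPM and TFF2 had 0 reads. Of the fibroblast markers, POSTN (500 CPM) and VIM (326 CPM) were high, whereas FAP had 0 reads and THY1 a mean of 0.0103 CPM.

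The cells transcribed an incomplete matrix repertoire. COL3A1 (ENSG00000168542, chromosome 2, 188974320 to 189012746, GRCh38), the chain of collagen III, had the highest level per length at 888 CPM per kilobase of exon in control. It alone gave 45.2% to 45.8% of the summed CPM of the 63 genes in the control libraries. COL1A1, a chain of collagen I, was at 0.748, 0.968 and 1.54 CPM in control, and its partner COL1A2 had 12 reads in all libraries together. Collagen IV, the network collagen of basement membranes, was made from an uncommon set of chains. COL4A5 was at 27.0 CPM per kilobase in control, COL4A4 at 11.7, COL4A6 at 6.55 and COL4A3 at 4.41. The widespread pair COL4A1 and COL4A2 had 0 and 3 reads, and 0 of 197368907 reads allows COL4A1 at most 0.0152 CPM, counting error only. Collagen VI was likewise partial, with COL6A1 at 41.9 and COL6A2 at 22.3 CPM per kilobase and COL6A3 at 29 reads in all. Laminin transcripts were mostly those of LAMC1 (75.2 CPM per kilobase in control), LAMB2 (29.1), LAMA5 (23.9), LAMA4 (10.5) and LAMB1 (8.33). LAMA1 had 3 reads. Of the inhibitors, TIMP1 was at 134 CPM per kilobase and TIMP3 at 104, while the secreted collagenase and stromelysin genes MMP1 and MMP3 had 2 reads each, MMP7 and MMP13 had 0 and MMP9 had 14. Genes below the level filter are named here after their values were seen.

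**Figure D1:**
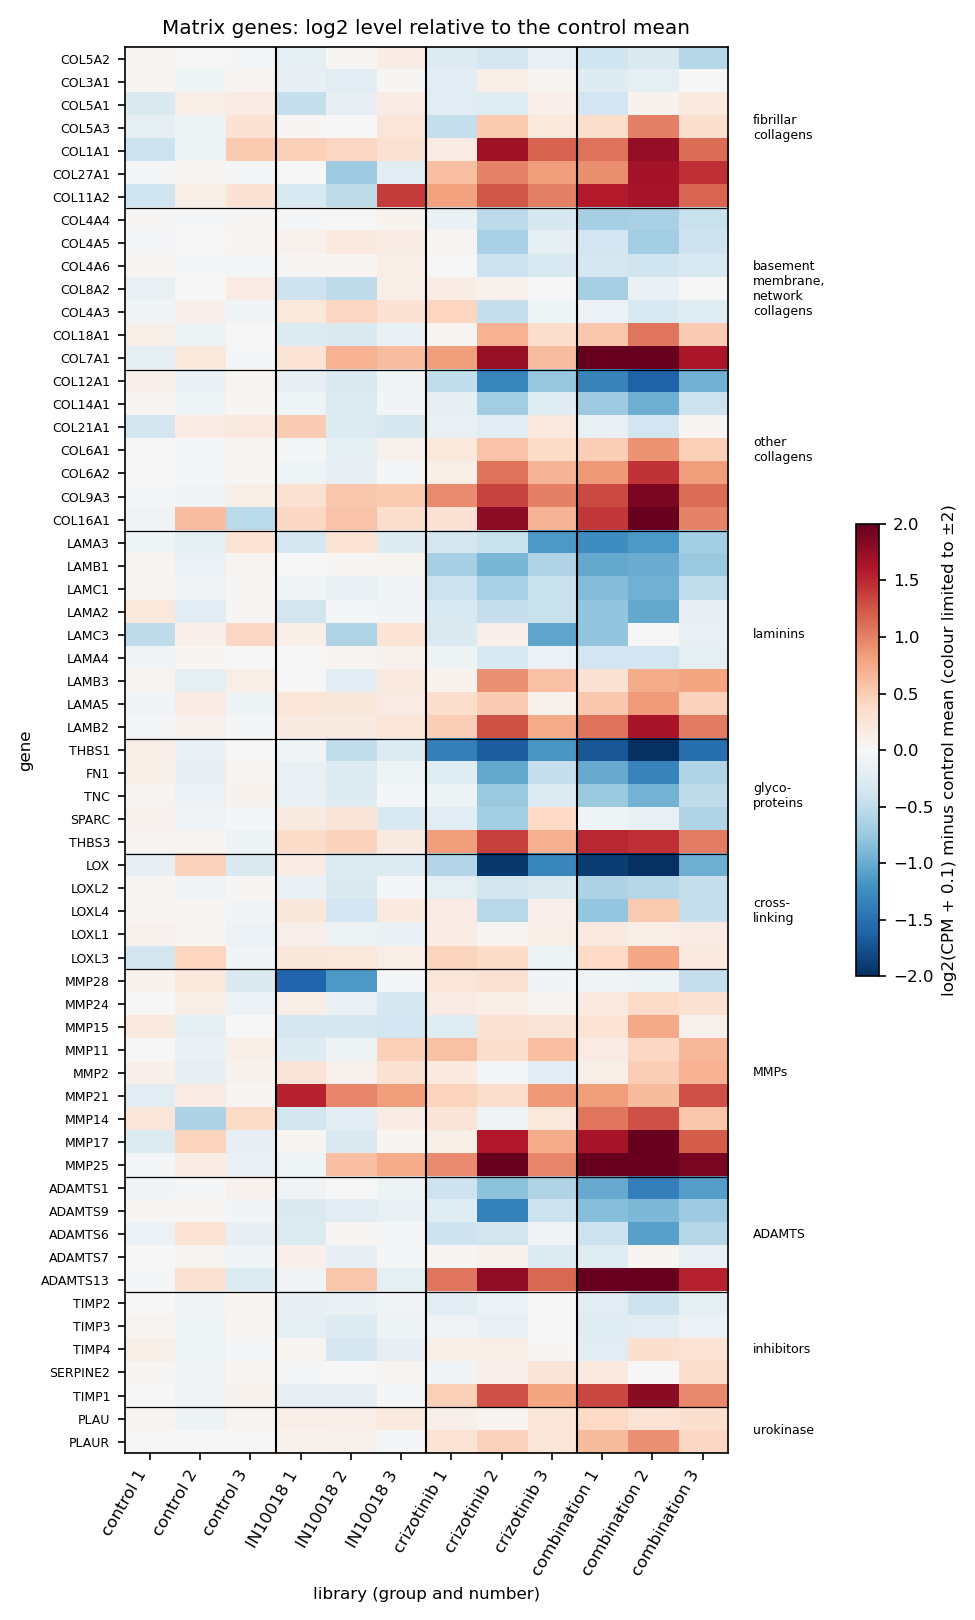
Level of 61 of the 63 genes (rows, by role) in each library (columns, 3 per group), as log2(CPM + 0.1) minus the control mean; red is above and blue below the control mean, limited to 2 either way. The control and IN10018 columns are pale apart from MMP21, MMP28 and a few low genes, and crizotinib library 2 resembles the combination columns more than crizotinib library 1 does.

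Promoter sequence is shown for 6 genes on which the treatment results turn, as the 250 bases upstream of the RefSeq start in GRCh38.p14, 5′ to 3′ on the gene's strand. Capitals mark, on either strand, the TEAD core GGAATG and the GC box GGGCGG. COL12A1, THBS1 and LAMC1 fell with the combination, COL7A1 and LAMA5 rose, and COL4A5 shares its start region with COL4A6, which lies on the opposite strand with its start 379 bases away.
COL12A1 (chr6:75206054-75206303, minus strand): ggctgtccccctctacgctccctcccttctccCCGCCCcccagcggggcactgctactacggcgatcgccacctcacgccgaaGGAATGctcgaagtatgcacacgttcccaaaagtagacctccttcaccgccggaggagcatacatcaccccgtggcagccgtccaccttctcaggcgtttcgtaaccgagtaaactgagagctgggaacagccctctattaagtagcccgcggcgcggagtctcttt
THBS1 (chr15:39580829-39581078, plus strand): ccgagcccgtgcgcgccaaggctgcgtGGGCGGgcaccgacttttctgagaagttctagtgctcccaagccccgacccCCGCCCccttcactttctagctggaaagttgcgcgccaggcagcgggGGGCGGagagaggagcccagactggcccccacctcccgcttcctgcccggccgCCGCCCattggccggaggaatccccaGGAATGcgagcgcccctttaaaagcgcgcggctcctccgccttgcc
LAMC1 (chr1:183023170-183023419, plus strand): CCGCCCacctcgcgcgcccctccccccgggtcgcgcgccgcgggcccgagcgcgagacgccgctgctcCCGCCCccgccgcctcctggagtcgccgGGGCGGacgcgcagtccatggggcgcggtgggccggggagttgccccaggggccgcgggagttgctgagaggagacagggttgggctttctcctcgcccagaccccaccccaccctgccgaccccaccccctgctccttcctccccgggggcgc
COL4A5 (chrX:108439588-108439837, plus strand): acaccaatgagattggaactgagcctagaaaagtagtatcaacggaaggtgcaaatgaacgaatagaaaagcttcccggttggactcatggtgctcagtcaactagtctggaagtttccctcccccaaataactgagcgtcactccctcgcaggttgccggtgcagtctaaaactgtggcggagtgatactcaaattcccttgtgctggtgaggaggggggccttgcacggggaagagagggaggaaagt
LAMA5 (chr20:62367313-62367562, minus strand): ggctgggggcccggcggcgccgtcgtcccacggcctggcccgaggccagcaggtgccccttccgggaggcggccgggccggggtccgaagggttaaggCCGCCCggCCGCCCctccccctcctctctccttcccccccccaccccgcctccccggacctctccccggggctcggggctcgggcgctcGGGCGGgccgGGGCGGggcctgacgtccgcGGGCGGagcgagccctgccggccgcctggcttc
COL7A1 (chr3:48595330-48595579, minus strand): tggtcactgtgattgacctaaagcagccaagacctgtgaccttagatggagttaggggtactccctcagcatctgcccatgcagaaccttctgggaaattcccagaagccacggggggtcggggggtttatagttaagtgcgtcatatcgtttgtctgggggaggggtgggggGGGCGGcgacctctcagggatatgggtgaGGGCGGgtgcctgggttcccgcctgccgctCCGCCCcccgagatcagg
A GGAATG stood in the COL12A1 and THBS1 windows and in 11.9% of all 35116 RefSeq promoter windows of this length. It was absent from the other windows shown, among them that of LAMC1, which also fell. The 6 windows shown were picked with the changes known, so their matches say nothing of the fallen genes as a set. The GC box was in each of these windows except that of COL4A5, and in 42.6% of all windows. The LAMC1 window was 79.6% G and C and that of LAMA5 82.8%, although these genes changed in opposite directions. COL4A3 and COL4A4 are likewise head to head, with starts 418 bases apart. A match is a description of letters, not of binding.

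IN10018 alone moved few of these genes. A gene is called, or said to rise or fall, at an edgeR adjusted p under 0.05 over all tested genes. With IN10018, 1 member was called of 63 (1.59%), beside 0.503% of all 17096 tested genes. It was called lower, beside 0.158% of all genes, and the call was lost on leaving out control library 3, IN10018 library 1 or IN10018 library 2. No member was called higher by edgeR, beside 0.345% of all genes. At an unadjusted p under 0.05 there were 2 higher and 2 lower, DESeq2 called 1 higher and limma-voom 0. The gene DESeq2 called was MMP21, a secreted metalloproteinase. MMP21 stood at 1.27, 1.69 and 1.54 CPM in control and 4.51, 3.03 and 2.76 CPM with IN10018, groups that did not overlap, with a log2 change of 1.18 ± 0.26 (edgeR adjusted p = 0.068). The median log2 change was -0.03 over the members and -0.02 over all tested genes. A fit of the 6 libraries of this comparison alone, which estimates the spread without the variable crizotinib groups, called 7 members higher and 4 lower, among them MMP21 (1.21), THBS3 (0.39), COL4A3 (0.34) and MMP15 (-0.31). In that fit 1314 genes were higher and 879 lower of 15750 tested (13.9%), beside 18.3% of the 60 members tested.

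Crizotinib and the combination each changed a large share of these genes, in both directions. These comparisons share the control libraries. With crizotinib 13 members rose and 11 fell (38.1%), beside 37.6% of all tested genes (20% higher, 17.6% lower). With the combination 21 rose and 21 fell (66.7%), beside 62.8% of all tested genes (33.7% higher, 29.1% lower). The shares were near the background in both. The 21 members not called with the combination had log2 changes between -0.40 (LAMC3) and 0.58 (COL5A3). The median log2 change of the members was 0.00 with crizotinib and -0.11 with the combination, and that of all tested genes was 0.08 and 0.10. The TMM scaling assumes that most genes do not change. When plain library totals were used instead, the all-gene median shifted by 0.123 with crizotinib and 0.178 with the combination, giving 19 higher and 7 lower members with crizotinib and 29 higher and 14 lower with the combination. All tested genes shifted alike, to 4820 higher and 1949 lower with crizotinib and 7103 higher and 3768 lower with the combination. The direction counts therefore depend on the scaling, while no called gene changed sign with it. With crizotinib, leaving out each of the 12 libraries in turn moved the counts both ways, to between 7 and 17 higher and between 6 and 15 lower. All tested genes moved too, to between 7.68% and 25.4% higher and between 7.74% and 20% lower. Members called lower were 6 or 7 when any 1 control library, the IN10018 libraries 1 or 3, or the crizotinib libraries 2 or 3 were left out. Members called higher were 7 or 8 without control library 1 or 3 or crizotinib library 2.

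**Figure D2:**
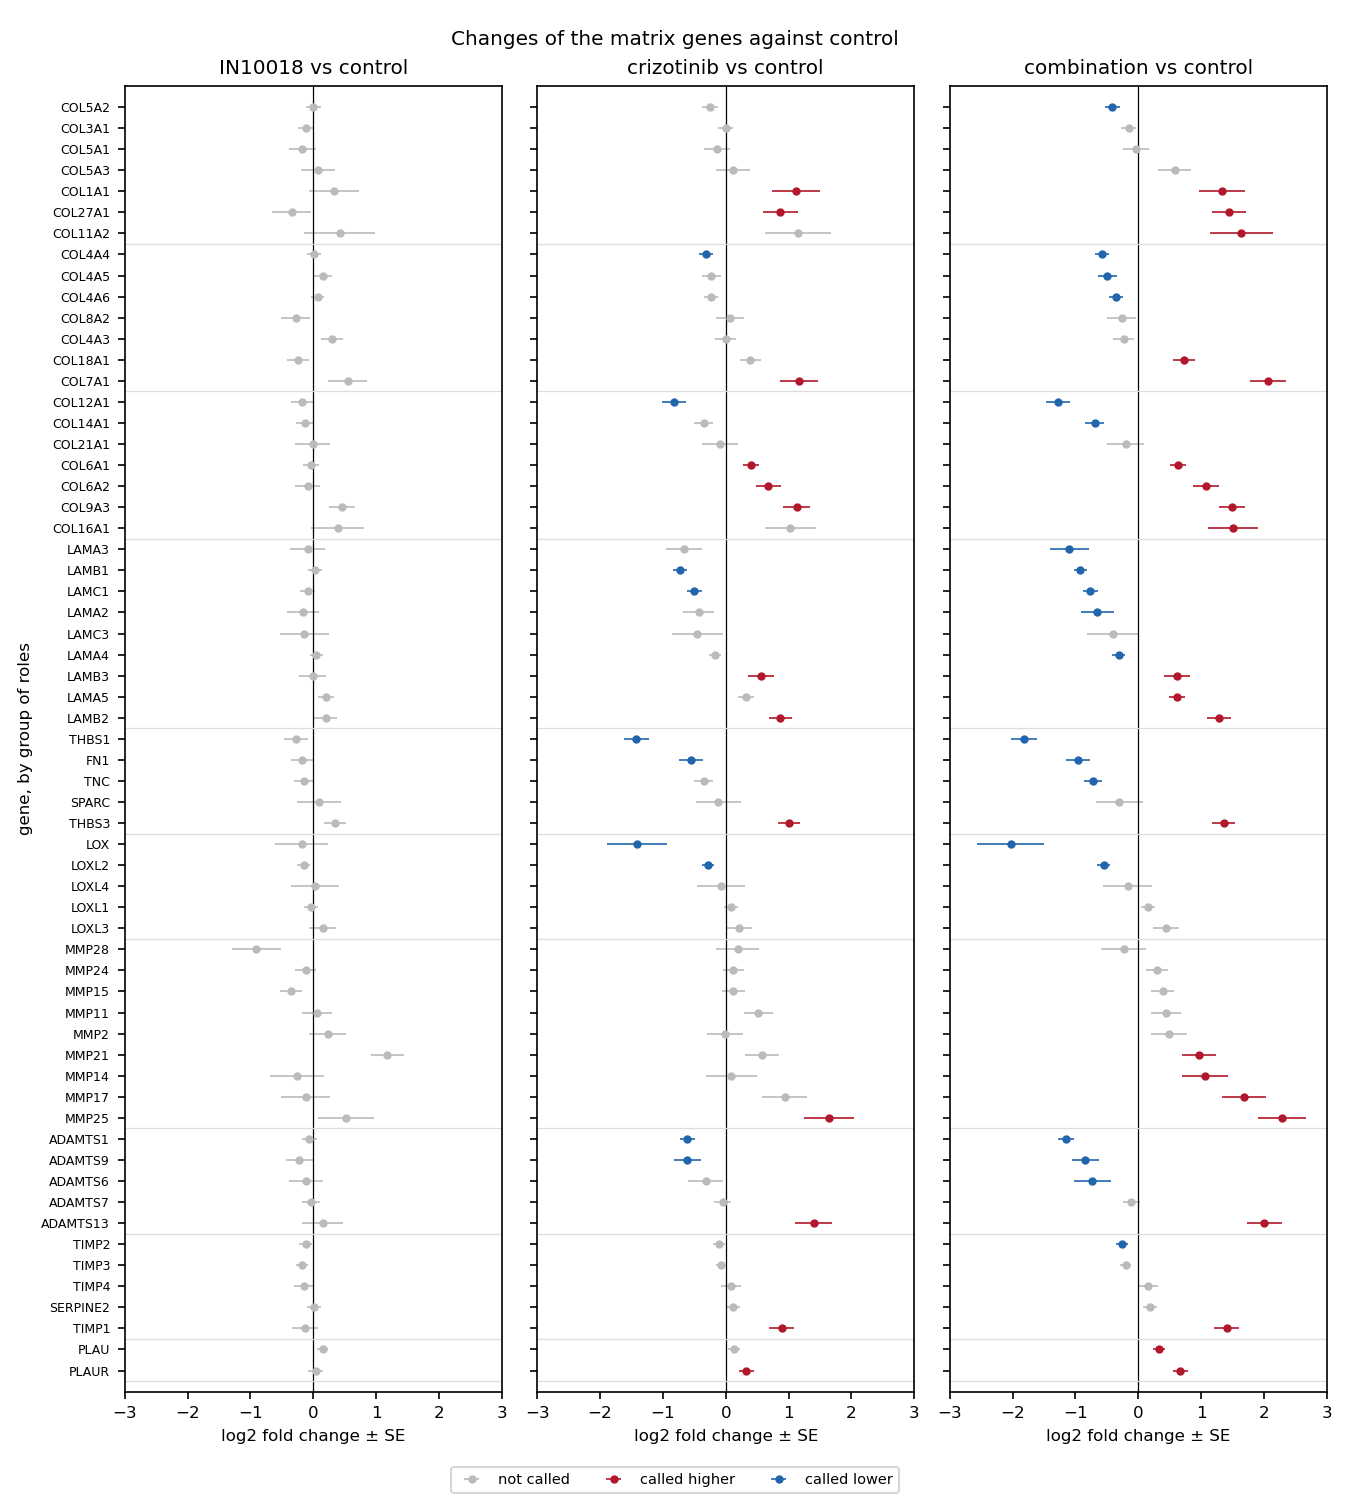
Log2 fold change (points) and its standard error (bars) of 61 of the 63 genes against control for IN10018, crizotinib and the combination, grouped by role; red is called higher, blue called lower and grey not called, by edgeR at an adjusted p under 0.05. Of the genes drawn, none is coloured with IN10018, 13 are red and 10 blue with crizotinib, and 21 are red and 20 blue with the combination.

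Among laminin chains, LAMB1 and LAMC1 fell and LAMB2 rose with crizotinib and with the combination, and LAMA5 rose with the combination. Among 10 laminin genes, 2 rose and 2 fell with crizotinib (20% each, beside 20% and 17.6% of all tested genes). With the combination 3 rose and 5 fell (30% and 50%, beside 33.7% and 29.1%). LAMB1 (chromosome 7, 107923799 to 108003255), the beta 1 chain, was at 70.6, 62.3 and 70.6 CPM in control, 42.7, 35.7 and 44.5 CPM with crizotinib and 33.2, 34.0 and 40.5 CPM with the combination. It fell by 0.73 ± 0.11 and 0.92 ± 0.11 on the log2 scale (edgeR adjusted p = 0.0016 and 6.9e-05), and neither treated group overlapped control. LAMB2 (chromosome 3, 49121114 to 49133118), the beta 2 chain, was at 195, 211 and 194 CPM in control, 282, 482 and 336 CPM with crizotinib and 423, 629 and 411 CPM with the combination. Its log2 changes were 0.87 ± 0.18 and 1.29 ± 0.19 (edgeR adjusted p = 0.0052 and 0.00012), again without overlap with control. A laminin trimer holds a single beta chain, either of these or another. Per kilobase, LAMB2 exceeded LAMB1 3.28, 4.01 and 3.25 times in control and 3.92, 3.92 and 3.98 times with IN10018. With crizotinib the ratio was 7.83, 15.99 and 8.95, and with the combination 15.12, 21.94 and 12.03. Crizotinib library 2 thus lay within the combination range.

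LAMC1, the gamma 1 chain shared by most laminins, was at 654, 600.0 and 642 CPM in control and 346, 325 and 448 CPM with the combination. It fell by 0.50 ± 0.12 with crizotinib and 0.76 ± 0.12 with the combination (edgeR adjusted p = 0.0079 and 0.00018). LAMA5, the main epithelial alpha chain, was at 329, 379.9 and 316 CPM in control, 434, 486 and 362 CPM with crizotinib and 496, 614 and 467 CPM with the combination. The combination lay above every control library, with a log2 change of 0.62 ± 0.13 (edgeR adjusted p = 0.001), and crizotinib overlapped control and did not pass (0.32 ± 0.13, adjusted p = 0.062). LAMA4, an alpha chain of vessel basement membranes, fell by 0.31 ± 0.10 with the combination, a call lost without combination library 1. LAMA2, the muscle alpha chain, was at 1.63 to 2.24 CPM in control and 1.07, 0.903 and 1.71 CPM with the combination, which overlap. Its fall by 0.65 ± 0.26 just passed (edgeR adjusted p = 0.043) and was called in 9 of 23 alternative analyses. Per kilobase, the LAMA5 to LAMA4 ratio was 2.10 to 2.46 in control and 3.52 to 5.35 with the combination. LAMA3 and LAMB3, an alpha and a beta chain of epithelial laminins, moved apart with the combination. LAMA3 fell by 1.10 ± 0.31 from 1.57 to 2.24 CPM in control, and LAMB3 rose by 0.62 ± 0.21 (edgeR adjusted p = 0.0072 and 0.018). The LAMB3 call was lost without control library 2, combination library 2 or combination library 3.

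Of the 4 expressed collagen IV genes, 3 fell with the combination (29.1% of all tested genes fell), each by less than the laminin beta chains moved. COL4A5 (chromosome X, 108439844 to 108697545) was at 316, 317 and 328 CPM in control, 339, 368 and 357 CPM with IN10018, 334, 205 and 283 CPM with crizotinib and 245, 197 and 241 CPM with the combination. The combination libraries lay below all control libraries (log2 change -0.49 ± 0.15, edgeR adjusted p = 0.0092), and the crizotinib libraries spread over both ranges. COL4A4 was at 119, 115 and 119 CPM in control and 74.5, 74.8 and 86.7 CPM with the combination (-0.58 ± 0.11, edgeR adjusted p = 0.00053). COL4A6 fell by 0.35 ± 0.11 with the combination (edgeR adjusted p = 0.013, a call lost without control library 1), and COL4A3 did not pass (-0.23 ± 0.17, adjusted p = 0.26). With plain library totals in place of TMM, the calls of COL4A5 and COL4A6 with the combination were both lost. That of COL4A4 held in all 23 alternative analyses. COL4A3 was lower with the combination than with IN10018 (-0.53 ± 0.17, edgeR adjusted p = 0.016), where its 3 libraries stood at 46.5, 53.7 and 48.9 CPM, above the 38.8, 43.0 and 38.9 CPM of control. That call was lost without IN10018 library 2.

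**Figure D3:**
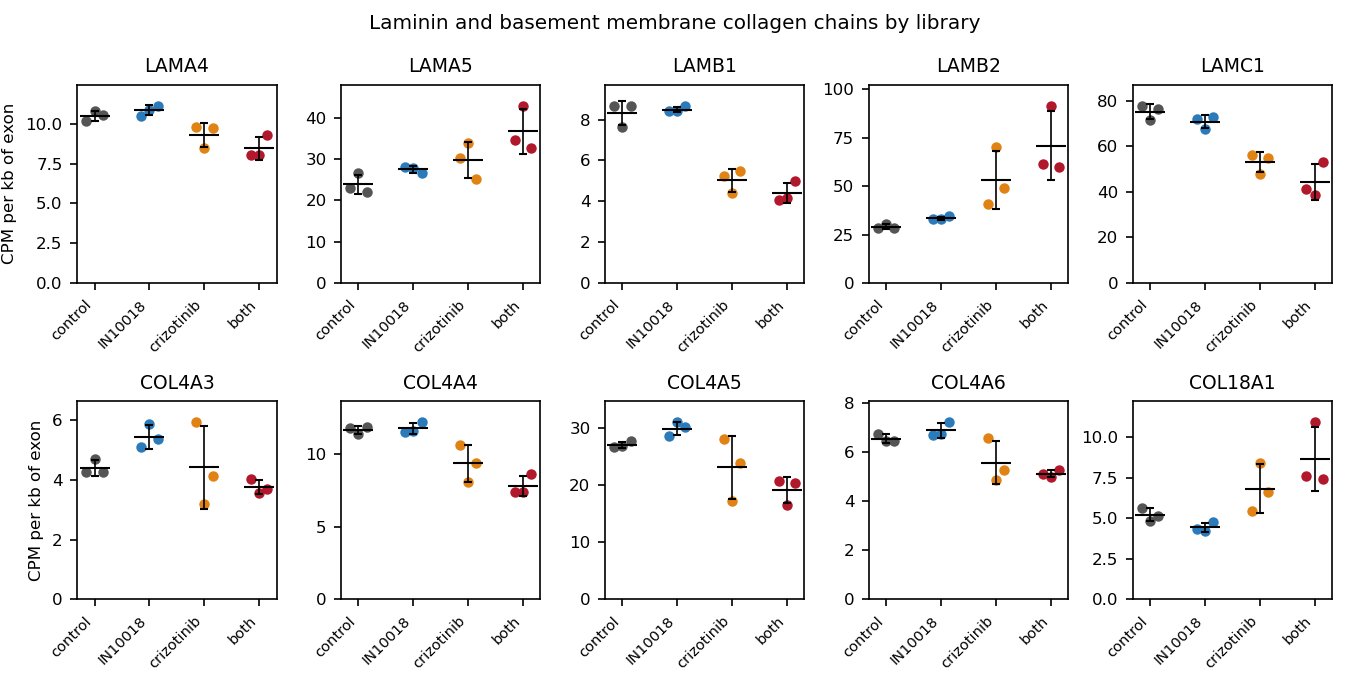
Level per length (CPM per kilobase of exon, linear axes from 0) of 5 laminin and 5 basement membrane collagen chains in each library; points are libraries, bars the mean and SD of 3. LAMB1 and LAMC1 lie lower, and LAMB2 higher, in every crizotinib and combination library than in any control library.

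Anchoring and endostatin-bearing collagens rose instead. COL7A1 (chromosome 3, 48564073 to 48595267), the anchoring fibril collagen under epithelia, was at 2.02, 2.66 and 2.24 CPM in control, 2.78, 3.79 and 3.58 CPM with IN10018, 4.15, 7.88 and 3.56 CPM with crizotinib and 9.46, 12.5 and 7.35 CPM with the combination. Both crizotinib-containing groups lay above control, with log2 changes of 1.17 ± 0.30 and 2.07 ± 0.29 (edgeR adjusted p = 0.011 and 0.00011). COL18A1, the source of endostatin, was at 48.1, 41.3 and 44.0 CPM in control and 64.5, 92.9 and 63.3 CPM with the combination. Its log2 change was 0.73 ± 0.17 (edgeR adjusted p = 0.0021). SLC19A1 on the opposite strand covers 16.4% of its exon length.

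Fibril-associated and beaded collagens split in direction. COL12A1 (chromosome 6, 75084326 to 75206051), which decorates collagen I fibrils, was the second highest collagen per length (183 CPM per kilobase in control). It was at 2429.6, 2056 and 2352 CPM in control, 1615, 915 and 1348 CPM with crizotinib and 904, 737 and 1168 CPM with the combination. No crizotinib or combination library reached the control range, and the log2 changes were -0.82 ± 0.19 and -1.28 ± 0.19 (edgeR adjusted p = 0.0074 and 0.00014). COL14A1, a related fibril-associated collagen, fell by 0.69 ± 0.15 with the combination. COL6A1 and COL6A2, chains of the beaded collagen VI, rose by 0.63 ± 0.13 and 1.08 ± 0.20 with the combination. COL6A2 was at 119, 118 and 123 CPM in control and 218, 327 and 215 CPM there. COL9A3, known from cartilage, was at 3.14, 3.09 and 3.51 CPM in control and 8.27, 12.2 and 7.16 CPM with the combination (1.49 ± 0.21, edgeR adjusted p = 9.8e-05). COL16A1, another fibril-associated collagen, rose by 1.51 ± 0.40 with the combination, and COL21A1 did not pass.

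Of 7 fibrillar collagens, 3 rose and 1 fell with the combination (42.9% and 14.3%, beside 33.7% and 29.1% of all tested genes). COL3A1, the most abundant, was at 6223, 5670.1 and 6246 CPM in control and 5069, 5266 and 5994 CPM with the combination, a log2 change of -0.15 ± 0.12 that did not pass (edgeR adjusted p = 0.28). COL5A2, a chain of the fibril-nucleating collagen V, fell by 0.41 ± 0.12 (edgeR adjusted p = 0.0095). COL27A1 was at 0.973, 1.03 and 0.958 CPM in control and 1.96, 3.34 and 2.88 CPM with the combination (1.45 ± 0.27, edgeR adjusted p = 0.00048). COL1A1 and COL11A2 also rose with the combination, by 1.33 ± 0.37 and 1.64 ± 0.50, from 0.224 to 1.54 CPM in control.

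Of 5 matrix glycoproteins, 1 rose and 3 fell with the combination (20% and 60%, beside 33.7% and 29.1% of all tested genes). THBS1 (chromosome 15, 39581079 to 39599466) encodes thrombospondin 1, an activator of latent TGF-beta. It was at 6.88, 5.75 and 6.28 CPM in control, 6.06, 4.45 and 5.24 CPM with IN10018, 2.37, 1.94 and 2.74 CPM with crizotinib and 1.84, 1.32 and 2.14 CPM with the combination. All crizotinib and combination libraries lay below the control range, with log2 changes of -1.42 ± 0.20 and -1.82 ± 0.21 (edgeR adjusted p = 0.0011 and 5.1e-05). FN1, fibronectin, was at 375, 307 and 353 CPM in control and 171, 136 and 226 CPM with the combination (-0.96 ± 0.19, edgeR adjusted p = 0.00077). TNC, tenascin C, fell by 0.72 ± 0.15 with the combination. SPARC, a small collagen-binding protein, did not pass in any of the 6 comparisons. THBS3, a less studied thrombospondin, was at 9.43, 9.44 and 8.46 CPM in control and 26.1, 25.2 and 18.7 CPM with the combination (1.36 ± 0.18, edgeR adjusted p = 8.6e-05). The gene MTX1 and an unnamed transcript on the opposite strand overlap its exons.

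Of 5 lysyl oxidase genes, 2 fell with crizotinib and with the combination (40% in each, beside 17.6% and 29.1% of all tested genes). LOXL2, the most abundant per length (47.5 CPM per kilobase in control), was at 278, 259 and 276 CPM in control, 237, 209 and 221 CPM with crizotinib and 176, 183 and 196 CPM with the combination. It fell by 0.28 ± 0.10 and 0.55 ± 0.10 (edgeR adjusted p = 0.033 and 0.00034). The LOXL2 call with crizotinib held in 13 of 23 alternative analyses and was lost, among others, without any 1 control library or crizotinib library 2 (-0.24, edgeR adjusted p = 0.098), while that with the combination held in all 23. LOX, just above the level limit, was at 0.823, 1.33 and 0.745 CPM in control and 0.178, 0.0695 and 0.429 CPM with the combination. It fell by 2.03 ± 0.53 on the log2 scale (edgeR adjusted p = 0.0042), on few reads. With crizotinib LOX was at 0.593, 0.171 and 0.318 CPM. That call held in 15 of 22 alternative analyses and was lost, among others, without crizotinib library 2 or 3. LOXL1, LOXL3 and LOXL4 changed by 0.16 ± 0.11, 0.44 ± 0.21 and -0.17 ± 0.39 with the combination and did not pass.

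The metalloproteinase genes that passed all rose, and all were low. Of 9, MMP25 passed with crizotinib (11.1%, beside 20% of all tested genes higher). MMP25, MMP17, MMP14 and MMP21 passed with the combination (44.4%, beside 33.7%). MMP17, a GPI-anchored membrane protease, was at 1.42, 2.42 and 1.54 CPM in control, 1.90, 5.48 and 2.99 CPM with crizotinib and 5.71, 7.64 and 4.16 CPM with the combination. The combination lay above control in all 3 libraries (1.69 ± 0.35, edgeR adjusted p = 0.001). MMP14, the membrane collagenase MT1-MMP, was at 0.524, 0.242 and 0.585 CPM in control and 1.01, 1.18 and 0.673 CPM with the combination (1.06 ± 0.37, edgeR adjusted p = 0.023). That call held in 15 of 22 alternative analyses. It was lost, among others, with DESeq2 and without control library 2, combination library 1 or combination library 2. MMP25 had a log2 change of 2.29 ± 0.38, but MMP25-AS1 on the opposite strand covers 35.2% of its exon length and itself changed by 1.81. The library kit marks strand, and whether reads were counted by strand is not given in the sources used here, so the pair cannot be told apart. Exon overlap with a gene holding at least 10% as many reads touched 14 members. That gene lay on the opposite strand for LAMA5, COL18A1, THBS3, LOX, COL9A3 and LAMB1, among others. For LOXL2 it was ENTPD4 on the same strand, where counting by strand would not separate them. LOX had 119 reads in all, and SRFBP1, over 2.5% of its exon length, had 3011 and changed by -0.89 with the combination. DLD, over 0.9% of the exon length of LAMB1, changed by -0.61.

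ADAMTS proteases moved both ways. ADAMTS1, which cleaves versican and aggrecan, was at 67.3, 68.8 and 74.1 CPM in control, 52.6, 39.5 and 46.1 CPM with crizotinib and 34.8, 27.2 and 32.5 CPM with the combination. The 3 groups were fully separate, and it fell by 0.61 ± 0.12 and 1.15 ± 0.12 (edgeR adjusted p = 0.0043 and 3.9e-05). ADAMTS9 also fell with the combination, by 0.84 ± 0.22. The fall of ADAMTS6 by 0.73 ± 0.29 just passed (edgeR adjusted p = 0.042) and was called in 7 of 23 alternative analyses, and ADAMTS7 did not pass (-0.11 ± 0.14). ADAMTS13, the von Willebrand factor protease, was at 1.72, 2.18 and 1.44 CPM in control, 3.79, 6.22 and 4.01 CPM with crizotinib and 7.26, 9.03 and 5.27 CPM with the combination (2.01 ± 0.28, edgeR adjusted p = 0.00011).

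Among the inhibitors, TIMP1 rose and TIMP2 fell. TIMP1 (chromosome X, 47582313 to 47586789), a secreted inhibitor of metalloproteinases, was at 206, 197 and 217 CPM in control, 184, 185 and 200.1 CPM with IN10018, 288, 505 and 356 CPM with crizotinib and 524, 720.2 and 403 CPM with the combination. Its log2 changes were 0.89 ± 0.20 with crizotinib and 1.41 ± 0.20 with the combination (edgeR adjusted p = 0.0068 and 0.00012). TIMP2 fell by 0.26 ± 0.10 with the combination, a call lost without control library 1 or combination library 2, and TIMP3 did not pass (-0.20 ± 0.09, edgeR adjusted p = 0.072), nor did TIMP4 or SERPINE2. PLAU, urokinase, and PLAUR, its receptor, rose by 0.33 ± 0.09 and 0.67 ± 0.12 with the combination. PLAUR was at 77.4, 78.1 and 77.1 CPM in control and 121, 147 and 103 CPM there, with no overlap.

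Adding IN10018 to crizotinib gave no call among the 63 genes in either direction (edgeR quasi-likelihood test), beside 0% higher and 0.0117% lower of all tested genes. At an unadjusted p under 0.05 there were 9 higher and 8 lower, DESeq2 called 1 lower, ADAMTS1, and limma-voom called 0. Same-numbered libraries of these groups deviated together, and with replicate number as a block COL7A1 was called higher (0.93, edgeR adjusted p = 0.044), beside 90 higher and 4 lower of all tested genes. COL7A1, TIMP1 and LAMB2 were higher and ADAMTS1, COL12A1 and FN1 lower with the combination in 3 of 3 such pairs. Many other members also went 1 way in 3 of 3 pairs, and the share over all genes was not computed. The pairing was read from these data and these genes were named for their p in this comparison, so the signs are no separate support. Crizotinib library 2 was singled out for lying among the combination libraries in these same counts. Leaving it out therefore tends to widen this comparison by construction, and the calls it gives are no separate support. Leaving out crizotinib library 1 alone or library 3 alone gave no call among the members. Without crizotinib library 2, 12 members were called higher and 11 lower. Among them COL7A1 changed by 1.33, MMP17 by 1.25, TIMP1 by 0.77, LAMB2 by 0.66, COL12A1 by -0.66, ADAMTS1 by -0.65, FN1 by -0.60 and TNC by -0.54. All these had the same sign with all libraries (COL7A1 0.90, MMP17 0.74, TIMP1 0.52, LAMB2 0.41, COL12A1 -0.46, ADAMTS1 -0.55, FN1 -0.41 and TNC -0.38). Across all tested genes the same omission gave 2614 higher and 3026 lower. Leaving out combination library 2 as well gave 12 higher and 9 lower, beside 1877 higher and 2475 lower of all tested genes. The part of library 2's low mitochondrial share in this was not tested.

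**Figure D4:**
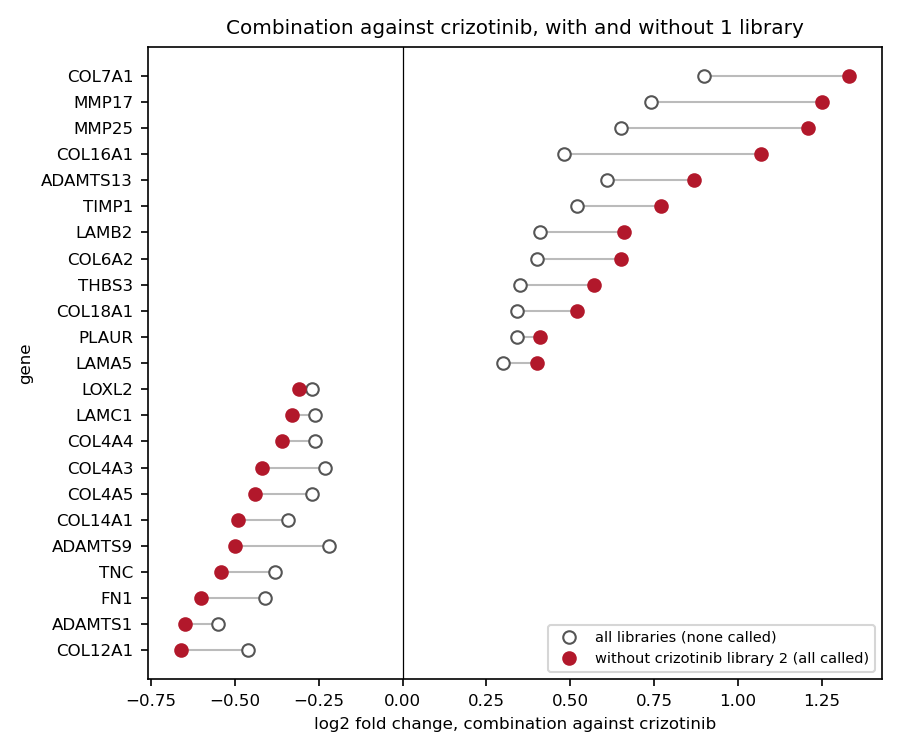
Log2 fold change of the combination against crizotinib for the 23 members called without crizotinib library 2, with all 12 libraries (open circles) and without that library (filled circles). No open circle is called, every filled circle is, and each gene moves away from 0 without that library, COL7A1 from 0.90 to 1.33. That library was singled out for lying among the combination libraries, and this choice favours such a movement.

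The test for departure from additivity on the log2 scale likewise called no member by edgeR, beside 0.0585% higher and 0.0117% lower of all tested genes (0.0702% together). At an unadjusted p under 0.05 there were 6 higher and 2 lower, DESeq2 called 1 and limma-voom 0. Without crizotinib library 2, 3 members were called higher, TIMP1 (0.89) and COL18A1 among them, and ADAMTS1 (-0.59), COL4A3 (-0.72) and COL4A5 (-0.58) were called lower, at edgeR adjusted p from 0.040 to 0.046 for these 5. The same omission called 392 genes higher and 413 lower of 17457 tested (4.61%). Library 2 was singled out for lying among the combination libraries, which limits these calls too.

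Adding crizotinib to IN10018 changed 39 members, 21 higher and 18 lower (61.9%), beside 57.2% of all tested genes (29.7% higher, 27.5% lower). The median log2 change was 0.01 for the members and 0.04 for all tested genes. The largest rises were those of ADAMTS13 (1.86 ± 0.28), MMP17 (1.81 ± 0.35), COL27A1 (1.79 ± 0.28), MMP25 (1.76 ± 0.36) and TIMP1 (1.53 ± 0.20). The largest falls were those of LOX (-1.85 ± 0.53), THBS1 (-1.55 ± 0.21), COL12A1 (-1.12 ± 0.19) and ADAMTS1 (-1.10 ± 0.12).

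The direction of change ran with base composition. Over the 63 genes, Spearman's correlation between the GC content of the longest transcript and the log2 change with the combination was 0.72, and over 16866 tested genes it was 0.52. The genes share libraries, and no test was made. Members called higher had a median GC content of 62.8%, those called lower 48.6%, and all genes 48.2%. With an offset for gene length and GC content fitted per library, 14 members were higher and 24 lower with the combination, and 7 were higher and 13 lower with crizotinib. Over all tested genes the offset gave 4404 higher and 5025 lower with the combination and 2395 higher and 3285 lower with crizotinib. Of the calls, 30 of 42 and 15 of 24 were kept. COL18A1, COL6A1, LAMA5 and PLAU changed sign with the combination, to -0.03, -0.04, -0.06 and -0.07. Such an offset also removes any treatment change that runs with GC content, and the 2 cannot be told apart.

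**Figure D5:**
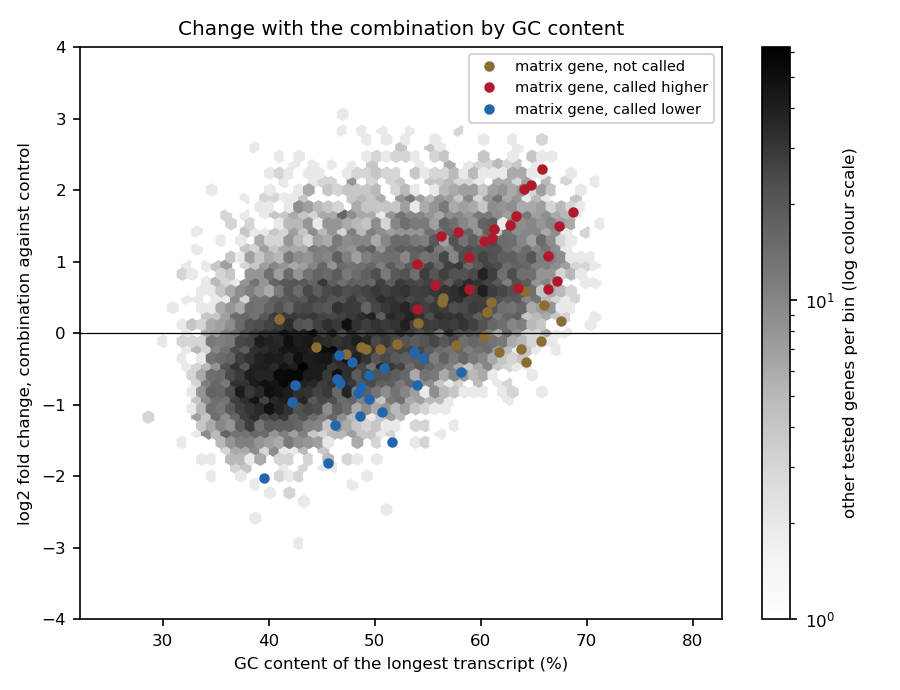
Log2 change with the combination against control (vertical axis) by GC content of the longest transcript in percent (horizontal axis); grey hexagons count the other tested genes on a log colour scale and points are the 63 members, red called higher, blue called lower and brown not called. Red points lie mostly at high and blue points at low GC content, with medians of 62.8% and 48.6%.

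Genes that act with these members were counted from lists. Beside these counts, 20% of all tested genes rose and 17.6% fell with crizotinib, and 33.7% rose and 29.1% fell with the combination. Of 9 tested basement membrane partners of laminin and collagen IV (14 listed), 1 rose and 6 fell with crizotinib (11.1% and 66.7%). With the combination 2 rose and 6 fell (22.2% and 66.7%), with a median log2 change of -0.93 against 0.10 over all genes. NID1 and NID2, the nidogens that link laminin to collagen IV, fell by 1.00 ± 0.18 and 0.99 ± 0.21 with the combination. DAG1, the dystroglycan receptor of laminin, fell by 1.27 ± 0.20, HSPG2, perlecan, by 0.46 ± 0.11, and FREM2, an epithelial basement membrane protein, by 1.71 ± 0.24, while AGRN, agrin, rose by 0.52 ± 0.13 (edgeR adjusted p at most 0.0039 for each). Of 22 collagen folding and processing genes, 5 rose and 8 fell with the combination (22.7% and 36.4%, median 0.00). PCOLCE, the enhancer of procollagen C-proteinase, rose by 1.45 ± 0.25, and PLOD2, a collagen lysyl hydroxylase, fell by 0.44 ± 0.11. Of 16 tested genes of TGF-beta signalling, 3 rose and 9 fell (18.8% and 56.2%, median -0.48). The receptor TGFBR1 fell by 0.77 ± 0.14, the transducers SMAD2 and SMAD3 by 0.76 ± 0.14 and 0.53 ± 0.09, and LTBP3, which holds latent TGF-beta in the matrix, rose by 1.29 ± 0.16. Of 14 tested regulators of matrix proteases, 5 rose and 3 fell (35.7% and 21.4%). The lysosomal protease CTSD rose by 1.96 ± 0.31, and the heparanase HPSE fell by 0.96 ± 0.15. Of 13 tested matrix receptors other than integrins, 4 rose and 4 fell (30.8% each, near the shares of all genes). Among them BCAM, a laminin alpha 5 receptor, rose by 0.73 ± 0.14.

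Marker genes of cell types moved as well. The summed CPM of 8 epithelial markers was 2190 to 2330 in control, 1870 to 2050 with IN10018, 2010 to 3560 with crizotinib and 2670 to 4050 with the combination. That of 10 fibroblast markers, mostly POSTN and VIM, was 953 to 1050, 897 to 943, 682 to 834 and 588 to 729 in the same order. Over all libraries POSTN ranged from 236 to 701 CPM, and VIM only from 298 to 367 CPM. That of 7 endothelial markers was 63 to 70.2 in control and 134 to 224 with the combination, of 8 gastric markers 5.69 to 8.23 and 18.2 to 36.7, and of 7 adipocyte markers 106 to 117 and 127 to 150. The 6 leukocyte markers were each below 0.5 CPM on average. FAP, KDR, CD3E, ADIPOQ, LPL, KRT19 and TFF2 had 0 reads. The RNA came from 1 cell line, so these sums are levels of marker genes in that line and not counts of cell types. By mean over all libraries, a single gene made up most of each sum given. It was KRT8 at 1510 CPM for the epithelial and POSTN at 500 CPM for the fibroblast markers. For the others it was EGFL7 at 72.6 CPM (endothelial), FABP4 at 84.7 CPM (adipocyte) and MUC6 at 9.94 CPM (gastric). Bulk RNA does not tell whether all cells or a part of them changed. The part of these shifts in the matrix results was not tested.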

How the data were processed

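The deposited matrix holds raw read counts per gene, which the authors made with Trimmomatic, FastQC, HISAT2 and featureCounts on GRCh38, per the submitters' processing notes (DESeq2 is also named there); versions, annotation and strand setting are not given in the sources used here. Libraries were prepared with a directional kit after TRIzol extraction, per the labels' protocols, and the depth of each library limits the precision of low genes. Library columns were matched to groups by sample title. Counts of all 17096 genes that passed edgeR's filterByExpr were fitted together (edgeR 4.0.16 in R 4.3.3, TMM scaling, robust quasi-likelihood F test, group only), and a gene was called at a Benjamini-Hochberg adjusted p under 0.05. All 63 members passed the filter, so that none was dropped. The SE is the log2 change divided by the root of F. CPM use TMM, and levels per length divide by GENCODE 29 exon length, whose annotation held 96.52% of the identifiers. Alternatives included DESeq2 1.42.0, limma-voom (limma 3.58.1), other scalings and filters, and leaving out each library. Deviations of same-numbered libraries from their group means correlated at 0.218, 0.624 and 0.275 between crizotinib and the combination, and at -0.028 to 0.156 between the other groups. The numbers were thus taken to pair the libraries of those 2 groups, from the data and not the labels, and a fit with replicate number as a block was run. Correlations between differently numbered libraries were not computed. The main edgeR fit was tested, for each comparison, on simulated counts with known changes and independently drawn libraries. The alternative fits were not tested in this way. Named genes were the 12 largest called changes each way per comparison, the 2 smallest p per role, and the highest control level per role. ADAMTS7, COL4A6, COL21A1, LAMA2, LAMC3, LOXL4, SERPINE2, SPARC and TIMP4 were added after their values were seen, to complete their families. Results of 2 members are not reported here. The members and lists were chosen with earlier results of these data known. RefSeq promoters matched 46 of 63 members (73.0%), below the 80% needed, so no motif share over the members is given.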

Additional observations from a re-analysis of the deposited data

How the results depend on the processing

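Counts of matrix genes called are given as higher and lower. For IN10018 against control (0 and 1) the higher count was 1 with no filter on low counts, with DESeq2 and without crizotinib library 2 and combination library 2 together, 2 with the leading axis within groups as a covariate, and 7 (4 lower) with only the libraries compared. In the same order these settings called 0.852%, 0.32%, 3.65%, 5.49% and 8.34% (5.58% lower) of all tested genes higher. Leaving out each library in turn gave 0 to 1 higher and 0 to 1 lower, beside at most 0.968% and 0.309% of all tested genes. For crizotinib against control (13 and 11), the higher count was 7 with the length and GC offset, and the lower count was 7 with library totals and 17 with the covariate. Of all tested genes, 14% were higher with the offset, and 11.4% and 27.1% were lower with library totals and the covariate. Leaving out each library gave 7 to 17 higher and 6 to 15 lower, beside 7.68% to 25.4% and 7.74% to 20% of all tested genes. For the combination against IN10018 (21 and 18) the offset gave 11 higher, 17.5% of the members beside 23.2% of all tested genes. For the combination against crizotinib (0 and 0), the counts were 3 and 3 with no filter, 16 and 10 with the covariate, 12 and 9 without both libraries numbered 2, and 1 lower with DESeq2. Over all tested genes these settings called, in the same order, 2.16% and 2.72%, 16.6% and 19.2%, 10.9% and 14.4%, and 0.014% lower. Leaving out each library gave 0 to 12 higher and 0 to 11 lower. The highest counts came without crizotinib library 2, singled out for lying among the combination libraries, beside 15% and 17.3% of all tested genes. For additivity (0 and 0) the counts were 1 higher with no filter and with DESeq2, 4 and 3 without both libraries numbered 2, and 7 and 4 with the covariate. Over all tested genes they were, in the same order, 0.49% and 0.129% higher, 5.41% and 5.71%, and 9.22% and 10.2%. Leaving out each library gave 0 to 3 higher and 0 to 3 lower, beside at most 2.25% and 2.37% of all tested genes. The covariate is taken from spread within groups and removes it by construction. The causes of the other shifts were not tested.

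The length and GC offset reversed COL18A1 (-0.03), COL6A1 (-0.04), LAMA5 (-0.06) and PLAU (-0.07) in the combination against control, and COL6A1 (-0.02), LAMA5 (-0.32) and MMP15 (-0.12) against IN10018. The summed CPM of the members in control was 13288 with TMM and 12444 by library totals, and in the combination 11489 and 12176. Of the calls, 27 of 42 for the combination against control, 22 of 39 against IN10018, 12 of 24 for crizotinib and 0 of 1 for IN10018 held under each alternative run. With replicate number as a block the counts were 1 higher and 1 lower for IN10018 (MMP21, adjusted p = 0.043, was added), 16 and 13 for crizotinib, 23 and 21 for the combination, and 1 and 0 for the combination against crizotinib (COL7A1, adjusted p = 0.044). Over all tested genes the block called, in that order, 1.1% and 0.252%, 22.7% and 20.6%, 34.6% and 29.8%, and 0.526% and 0.0234%. The block changed no call of additivity among the members. Low counts limit members near 0.5 CPM, such as LOX and MMP14.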
